A study of Mus musculus with 16 samples.

Results

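Splicing factors of the SR, hnRNP, U2AF, SF3, snRNP and Prpf families were described in bone of wild type mice after ovariectomy (OVX) and after sham surgery (NC). Members were all genes whose symbol begins with Srsf and a digit, Hnrnp, Snrp, Sf3a, Sf3b, Prpf and a digit or U2af, with pseudogenes left out and a mean count above 0. This gave 68 of the 25239 genes in the RNA table, and 94 of the 13083 peaks in the m6A table lay in 47 of them. No gene met the name rule with a mean of 0, and 1 pseudogene, Hnrnpa1l2-ps2, was left out. The study sequenced RNA and RNA carrying N6-methyladenosine (m6A, a methyl mark on internal adenosines), with ovary removal as a mouse model of bone loss by estrogen deficiency. Each arm had 4 immunoprecipitated (IP) libraries, in which an antibody against m6A pulled RNA down, and 4 input libraries of RNA before that step. The treatment field reads ovariectomy for the 4 IP libraries titled NC, so the titles were followed. The labels give neither age nor strain, and do not say whether each library came from its own animal, so the deposited p-values may measure technical spread only.

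The deposited tables hold the authors' comparisons and no value of a single library, so neither arm's level nor an overlap of the arms can be given. The tables do not name the arm in the numerator. Fold changes therefore keep the sign of the table, and a positive value is not called a rise after ovariectomy. If the usual alphabetical default had set the order, NC would be the denominator, but nothing in the tables states it. In bulk tissue, more cells of a type and more RNA per cell cannot be told apart. Each of 12 bone cell markers had a mean count above 0 in the authors' deposited table, between 481.9 for Sp7, an osteoblast transcription factor, and 99868 for Col1a1, the main bone collagen. All 10 skeletal muscle markers were also present in the authors' deposited table, with means between 11882 and 336370 counts.

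Splicing removes introns in a spliceosome built from small nuclear ribonucleoproteins (snRNPs) and many accessory proteins. The U1 snRNP pairs with the 5′ splice site, U2AF reads the polypyrimidine tract and the AG of the 3′ splice site, and the U2 snRNP with its SF3A and SF3B complexes settles on the branch point. The tri-snRNP, which holds several Prpf proteins, then joins and the catalytic core forms. SR proteins usually promote the use of exons they bind, and hnRNP proteins often oppose it. Many of these genes control their own level through unproductive splicing, and m6A can change which hnRNP proteins reach an RNA.

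In the authors' deposited table, U2af2, Srsf7, Sf3a1, Snrpa, Snrpb, Hnrnpa1, Prpf8 and Hnrnpl had positive fold changes that passed the threshold of an adjusted p under 0.05, and no member passed with a negative sign. Of 67 members with an adjusted p, 8 (11.9%) were thus called positive. Beside them, 6.07% of all 15396 tested genes were called positive and 6.11% negative in the authors' deposited table. Among the 7150 tested genes with mean counts in the members' own range, 9.12% were called positive and 6.46% negative in the authors' deposited table. With both signs together, the members' 11.9% lay beside 12.2% of all tested genes and 15.6% of genes in that range, so their rate of calls did not stand above the background. Centring fold changes on the median of the top 25% of mean counts, 0.03, ended 5 of the 8 calls, by a Wald test on fold changes and SE of the authors' deposited table with Benjamini-Hochberg adjustment. By that Wald test on the authors' deposited table the adjusted p was 0.057 for Hnrnpa1, 0.058 for Snrpa, 0.071 for Snrpb, 0.080 for Prpf8 and 0.090 for Hnrnpl, while U2af2, Srsf7 and Sf3a1 passed.

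Most members shared the positive sign. Of the 67 tested members, 54 (80.6%) were positive and 13 negative by the authors' deposited table, against 46.7% positive among all tested genes and 53.5% among genes in the same range of counts. Their median log2 fold change in the authors' deposited table was 0.12 (quartiles 0.03 and 0.18), beside -0.02 for all tested genes and 0.02 for genes in that range. These are descriptions, since the genes of a family share libraries and cannot count as replicates. The families differed in how one-sided they were. All 9 SF3 genes and all 3 U2AF genes were positive in the authors' deposited table, as were 18 of 20 hnRNP, 10 of 12 snRNP, 7 of 10 SR and 7 of 13 Prpf genes. Centred on the median of the top 25% of mean counts, the positive members numbered 50, with 8 of 9 SF3 and 5 of 13 Prpf genes, and the Prpf median turned from 0.00079 to -0.03.

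**Figure D1:**
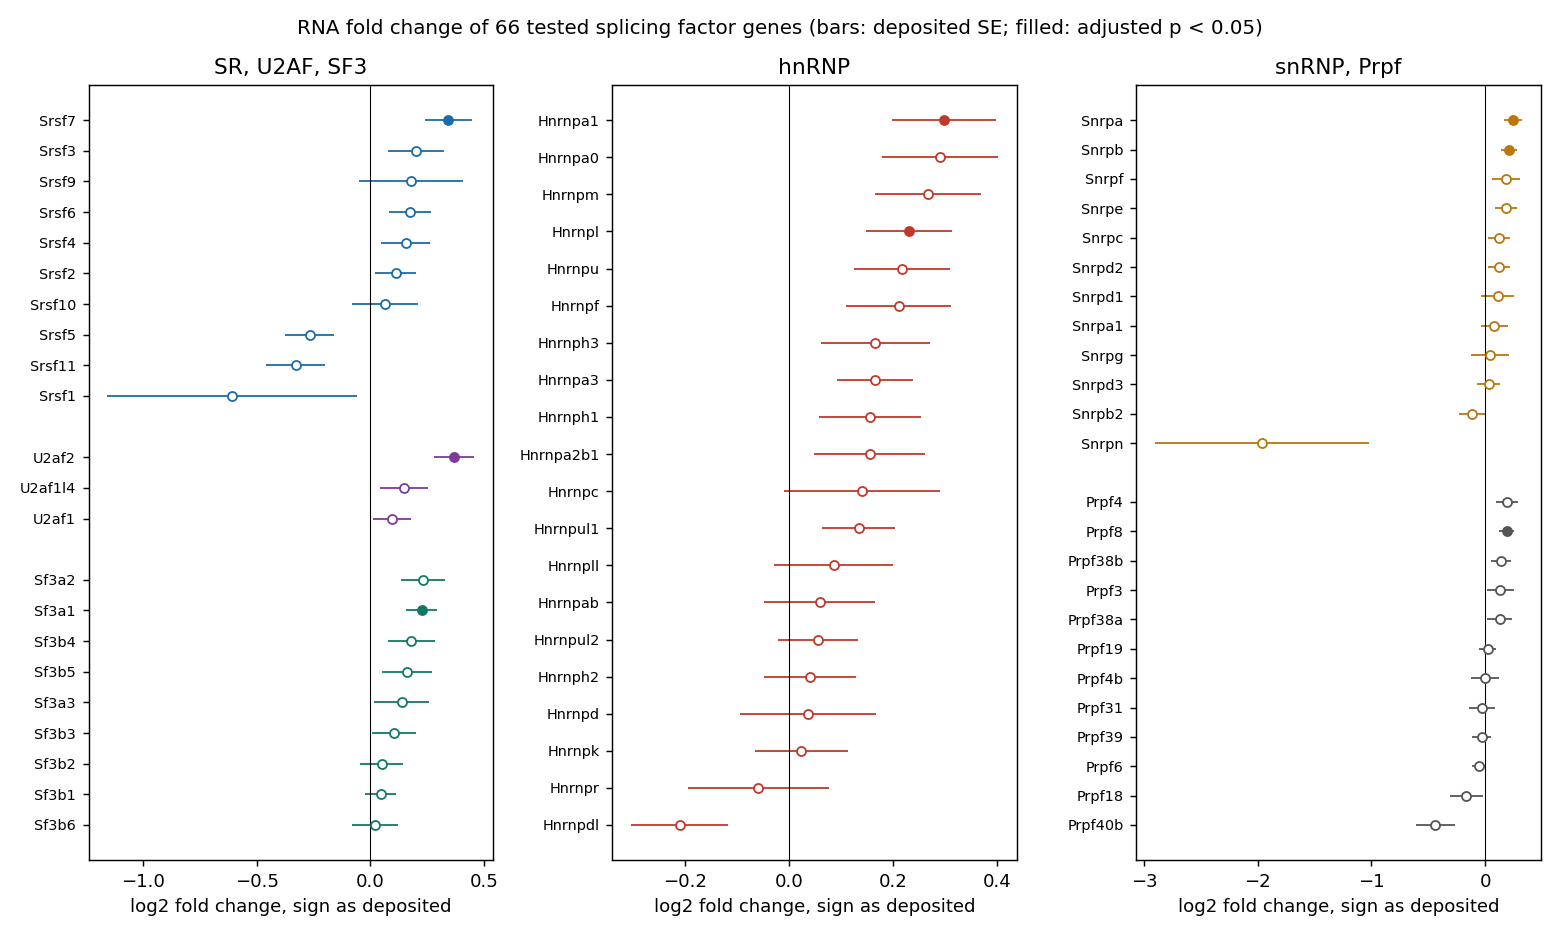
Log2 fold change (x axis, sign as deposited) of 66 tested splicing factor genes, 1 row per gene, grouped by family, with a different x scale in each panel; bars are the deposited SE and filled points have an adjusted p under 0.05. The 8 filled points all lie right of 0, and Snrpn and Srsf1 have the widest bars.

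The changes were small and, for most members, tightly bounded. The median SE of the tested members was 0.10 in the authors' deposited table, against 0.12 for genes in the same range of counts and 0.17 for all tested genes. The smallest absolute Wald statistic among called genes was 2.74, so a member with the median SE needed a log2 change of about 0.28, a ratio of 1.21, to be called. For 59 of the 67 tested members (88.1%) the whole 95% Wald interval, computed from the authors' deposited table, lay within 0.5 log2 of 0, compared with 67.7% of genes in the same range. The interval lay above 0 for 15 members and below 0 for 5. Those 20 members, with an unadjusted p under 0.05, made up 29.9% of the tested members, beside 25.7% of all tested genes and 30.1% of genes in the range in the authors' deposited table.

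**Figure D2:**
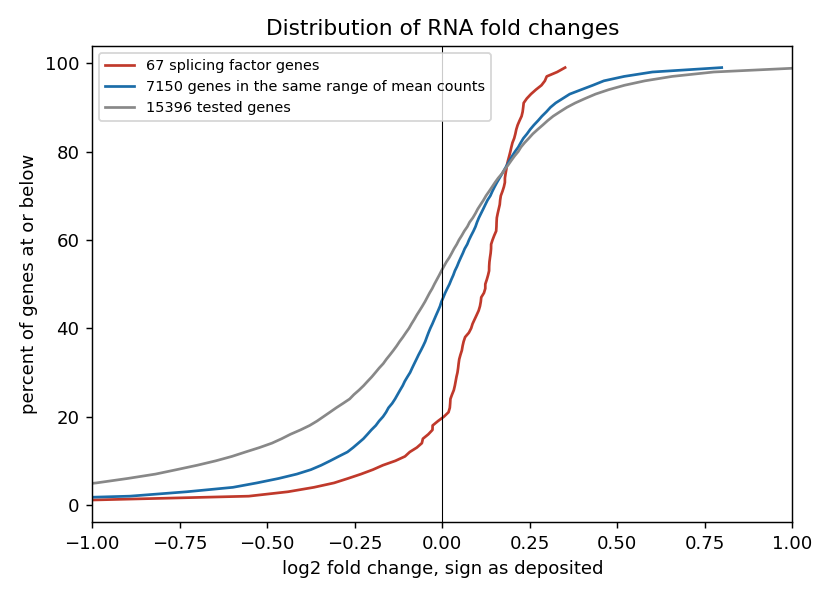
Percent of genes (y axis) at or below a log2 fold change (x axis, sign as deposited), for 67 splicing factor genes, 7150 tested genes in the same range of mean counts and all 15396 tested genes. The members' curve crosses 50% at 0.12, right of the other curves at 0.02 and -0.02, and is the steepest.

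Recognition of the 3′ splice site held the member with the smallest p. U2af2, the large U2AF subunit that binds the polypyrimidine tract, had 0.37 ± 0.09 in the authors' deposited table (adjusted p = 0.0015), a ratio of 1.29 between the arms with a 95% interval of 0.19 to 0.54 log2. Its partner U2af1, which reads the AG of the splice site, had 0.09 ± 0.08 in the authors' deposited table (adjusted p = 0.51). U2af1l4, a paralog of that small subunit, had 0.15 ± 0.10 in the authors' deposited table (adjusted p = 0.39). The difference between the subunits was not tested, as their errors are not independent.

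The SF3 complexes, which hold the U2 snRNP at the branch point, gave 1 call. Sf3a1, the largest SF3A protein, had 0.23 ± 0.07 in the authors' deposited table (adjusted p = 0.013). Sf3a2 had nearly the same value with a larger error, 0.23 ± 0.10 in the authors' deposited table (adjusted p = 0.093), and Sf3a3 had 0.14 ± 0.12. Of the SF3B scaffold, Sf3b1, which encloses the branch point helix and is the SF3 gene best known from blood cancers, had 0.04 ± 0.07 in the authors' deposited table, with a 95% interval of -0.09 to 0.18. Sf3b2, with the highest mean count of the family at 40770, had 0.05 ± 0.09 in the authors' deposited table. Sf3b3 and Sf3b5 stood at 0.10 ± 0.10 and 0.16 ± 0.11 by the authors' deposited table. The others were Sf3b6, which touches the branch point, with 0.02 ± 0.10, and Sf3b4 with 0.18 ± 0.10 in the authors' deposited table.

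Among snRNP proteins, Snrpa, which binds a stem loop of U1 RNA, had 0.25 ± 0.08 in the authors' deposited table (adjusted p = 0.027). Snrpb, the Sm ring protein shared by the spliceosomal snRNPs, had 0.21 ± 0.07 in the authors' deposited table (adjusted p = 0.030). By the authors' deposited table, the other Sm ring genes had values from 0.03 ± 0.10 for Snrpd3 to 0.19 ± 0.12 for Snrpf, without a call. Snrpc of the U1 snRNP had 0.12 ± 0.09, and the U2 snRNP genes Snrpa1 and Snrpb2 had 0.08 ± 0.12 and -0.11 ± 0.12 in the authors' deposited table. Snrpn, an imprinted paralog of Snrpb best known from neurons, was the most negative member at -1.96 ± 0.94 in the authors' deposited table (adjusted p = 0.16). Its mean of 33.2 counts was the lowest of the tested members, and its reads may be shared with overlapping Snurf or with Snrpb.

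The Prpf proteins were split by sign. Prpf8, the scaffold of the catalytic core in the U5 snRNP, had 0.19 ± 0.06 in the authors' deposited table (adjusted p = 0.032). The tri-snRNP genes Prpf3, Prpf4, Prpf6 and Prpf31 were not called and had 0.13 ± 0.12, 0.20 ± 0.10, -0.05 ± 0.06 and -0.03 ± 0.11 in the authors' deposited table. Prpf40b, a relative of a U1 snRNP protein of yeast, had -0.44 ± 0.17 in the authors' deposited table. It had the smallest p of the negative Prpf genes but missed the threshold in the authors' deposited table (adjusted p = 0.079). Prpf19, a ubiquitin ligase that acts during spliceosome activation, had 0.02 ± 0.08, and the kinase Prpf4b had 0.00079 ± 0.12 in the authors' deposited table. Prpf18 of the second catalytic step had -0.17 ± 0.14 in the authors' deposited table.

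SR proteins had members at both ends. Srsf7, an SR protein with a zinc knuckle, had 0.34 ± 0.10 in the authors' deposited table (adjusted p = 0.012), a ratio of 1.27. Srsf11 and Srsf5 had -0.33 ± 0.13 and -0.27 ± 0.11 in the authors' deposited table (adjusted p = 0.077 for each). Both missed the threshold as deposited and passed it under the centring that ended 5 positive calls (adjusted p = 0.045 for Srsf5 and 0.049 for Srsf11 by the same Wald test on the authors' deposited table). The other tested SR genes lay between 0.06 ± 0.15 for Srsf10 and 0.20 ± 0.12 for Srsf3, apart from Srsf1 at -0.61 ± 0.55 in the authors' deposited table. Srsf1, a founding SR protein, had a mean of 6416 counts, yet its SE was above that of 98.2% of the 7150 genes in the members' range in the authors' deposited table. Srsf9 also had a wide error, at 0.18 ± 0.23 in the authors' deposited table. Srsf12 had a mean of 11.2 counts and no adjusted p in the authors' deposited table, and was the 1 member not tested.

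The hnRNP family, with 20 members, had 2 calls. Hnrnpa1, which represses exons and binds many messenger RNAs, had 0.30 ± 0.10 in the authors' deposited table (adjusted p = 0.031). Hnrnpl, which binds CA-rich RNA, had 0.23 ± 0.08 in the authors' deposited table (adjusted p = 0.046). Hnrnpa0 and Hnrnpm had 0.29 ± 0.11 and 0.27 ± 0.10 in the authors' deposited table and stood just outside the threshold, with adjusted p = 0.064 and 0.065. Hnrnpu, a chromatin-bound family member, and Hnrnpf, which binds G-rich RNA, had 0.22 ± 0.09 and 0.21 ± 0.10 in the authors' deposited table (adjusted p = 0.10 and 0.16). Hnrnpa2b1, described as an m6A-dependent factor, had the highest mean count of all members, 61894, with 0.15 ± 0.11 as its log2 fold change in the authors' deposited table. Hnrnpc, whose access to RNA m6A can open, had 0.14 ± 0.15, and Hnrnpk had 0.02 ± 0.09 in the authors' deposited table. Hnrnpdl and Hnrnpr were the negative ones, at -0.21 ± 0.09 and -0.06 ± 0.14 in the authors' deposited table. Hnrnpa1 has near-identical processed copies, and the excluded copy Hnrnpa1l2-ps2 had -0.10 ± 0.14 at a mean of 636.3 counts in the authors' deposited table, so reads could be split between them.

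Other splicing genes, a list of 70 chosen for their function, had 4 positive and 3 negative calls in the authors' deposited table. These 7 were 10% of the list, beside the 12.2% of all tested genes. By sign 44 of the 70 were positive, with a median of 0.05 in the authors' deposited table, and the difference from the members was not tested. The positive calls were Celf1, an RNA-binding regulator, with 0.38 ± 0.13, Lsm2 of the U6 snRNP ring with 0.36 ± 0.12, the exon regulator Rbm10 with 0.35 ± 0.09 and the tri-snRNP gene Sart1 with 0.18 ± 0.05 in the authors' deposited table. The negative calls were Qk with -0.35 ± 0.12, Mbnl2 with -0.34 ± 0.13 and Ptbp2 with -0.28 ± 0.09 in the authors' deposited table.

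Markers of several cell types were called in the same comparison. Of 11 B lineage markers, 10 were called, all positive, with a median of 1.07 in the authors' deposited table. Cell division genes were positive in 12 of 12 cases and called in 3, with a median of 0.31, and of 8 tested erythroid genes 6 were positive and 3 called, with a median of 0.41 in the authors' deposited table. All 10 muscle markers were negative and 2 were called, with a median of -1.35, and of 8 neutrophil markers 2 were positive and none called, with a median of -0.24 in the authors' deposited table. Of the 12 bone cell markers, 5 were positive and 7 negative, and the 3 called were positive, the collagen gene Col1a1 with 1.12 ± 0.32 and the osteocalcin genes Bglap2 and Bglap with 1.10 ± 0.32 and 1.08 ± 0.34 in the authors' deposited table. All 5 osteoclast markers were negative with a median of -0.33, and 1 was called, the protease gene Ctsk with -0.72 ± 0.20 in the authors' deposited table. The part of these cell types in the splicing factor values was not tested, and their summed levels in each arm are not in the tables.

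Promoter sequence was described after the RNA values were seen, for members of both signs together. Whether any motif bears on the sign of the fold changes was not tested. RefSeq (GRCm38.p6) promoters matched 59 of the 68 members, with 80 start sites. Both strands of the 250 bases before the start were searched for a few short motifs. The core bound by ETS factors, CCGGAAG, was in 27.5% of the members' promoters, in 6.91% of all 32851 promoters and in 14.4% of the 7418 promoters of genes in the members' range of counts. The GC box, GGGCGG, was in 62.5% of the members' promoters, against 32.7% of all promoters and 59.7% of those in the range. The CCAAT box was in 46.2% of the members' promoters, 33.8% of all and 34.1% of those in the range. The E-box CACGTG was in 8 of the members' 80 promoters (10%), in 6.02% of all and in 8.75% of those in the range. The letters GCATGCGC of the NRF1 site were in 5.0% of the members' promoters, 2.26% of all and 4.56% of those in the range. The TATAAA box was in 7.5% of the members' promoters, 12.4% of all and 6.5% of those in the range. The median GC content of the 250 bases was 60.0% for members, 52.4% for all promoters and 60.4% for those in the range. Srsf7 and Sf3a1 were the called members with the smallest adjusted p among those matched. Srsf5 was the SR gene of negative sign with the highest mean count. The promoters of these genes are printed 5′ to 3′ as examples, with all matched letters in capitals. They lie at chr17:80207306-80207555 on the minus strand, chr11:4160104-4160353 on the plus strand and chr12:80945249-80945498 on the plus strand.
Srsf7: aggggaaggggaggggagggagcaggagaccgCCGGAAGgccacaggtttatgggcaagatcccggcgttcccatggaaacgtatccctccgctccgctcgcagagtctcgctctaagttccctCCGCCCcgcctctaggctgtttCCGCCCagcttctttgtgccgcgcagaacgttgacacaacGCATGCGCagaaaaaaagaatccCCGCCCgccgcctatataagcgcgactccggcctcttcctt
Sf3a1: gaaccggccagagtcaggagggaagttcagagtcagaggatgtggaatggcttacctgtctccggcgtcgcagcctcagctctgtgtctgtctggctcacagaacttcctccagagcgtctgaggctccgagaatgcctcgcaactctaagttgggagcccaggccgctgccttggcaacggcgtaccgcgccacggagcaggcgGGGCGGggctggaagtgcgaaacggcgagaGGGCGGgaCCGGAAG
Srsf5: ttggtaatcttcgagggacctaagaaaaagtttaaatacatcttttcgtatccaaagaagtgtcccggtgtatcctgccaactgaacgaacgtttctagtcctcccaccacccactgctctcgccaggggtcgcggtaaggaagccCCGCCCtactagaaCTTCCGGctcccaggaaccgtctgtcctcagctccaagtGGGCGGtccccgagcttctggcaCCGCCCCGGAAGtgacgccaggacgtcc
All 3 hold both the ETS core and the GC box on 1 strand or the other. Srsf5 was not called, nor was Srsf11, also of negative sign, which holds the ETS core and the GC box before its starts 1 and 2. Of the other matched called members, Snrpa, Hnrnpa1, Prpf8 and Hnrnpl, none holds the ETS core in this window. Prpf8 also lacks the GC box, and Snrpa holds it before its start 1 but not before its start 2. In Srsf5 a GC box and an ETS core overlap by 1 base near the start.

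Peaks of m6A lay in 47 of the 67 tested members (70.1%, exact 95% interval 57.7 to 80.7), in the authors' deposited table. The share was 65.7% of genes in the members' range of mean counts and 44.3% of all tested genes, and the differences were not tested. Peaks were listed for 18 of 20 hnRNP and 12 of 13 Prpf genes in the authors' deposited table, for 6 of 10 tested SR, 6 of 9 SF3 and 5 of 12 snRNP genes, and for none of 3 U2AF genes. Hnrnpul2 carried 5 peaks, and Hnrnpu, Prpf39, Sf3b1 and Sf3b2 carried 4 each in the authors' deposited table, while 22 members had 1. The RNA and m6A comparisons share the input libraries, so their values are only set side by side. Of the 8 members called in RNA, Sf3a1 had 3 peaks, and Hnrnpa1 and Prpf8 had 1 each. None was listed for U2af2, Srsf7, Snrpa, Snrpb or Hnrnpl in the authors' deposited table. Of the 60 members not called, Srsf12 among them, 44 had a peak, and the difference from the called members was not tested.

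Enrichment of IP over input was modest in the members, and its difference from other genes was not tested. The 94 peaks had a median enrichment of 1.70 (quartiles 1.51 and 1.99) in the authors' deposited table, against 1.82 for all peaks and 1.83 for peaks of genes in the range of counts. By the authors' deposited table, 24 of them (25.5%) and 37.3% of all peaks reached an enrichment of 2. The kinase gene Prpf4b had the highest member peak, 3.51, over 1589 exonic bases in 5 exon blocks (chromosome 13, 34875692 to 34889570). Next in the authors' deposited table were a peak of Hnrnpa3 at 2.61, of Prpf38b at 2.59, of Hnrnpdl at 2.58, and peaks of Hnrnpu and Srsf1 at 2.51 each. A peak of Sf3b3 was the lowest, with 1.08 by the authors' deposited table. Of the SF3 peaks 1 of 14 reached 2, and of the snRNP peaks none of 5, while 12 of 38 hnRNP and 4 of 9 SR peaks did in the authors' deposited table.

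**Figure D3:**
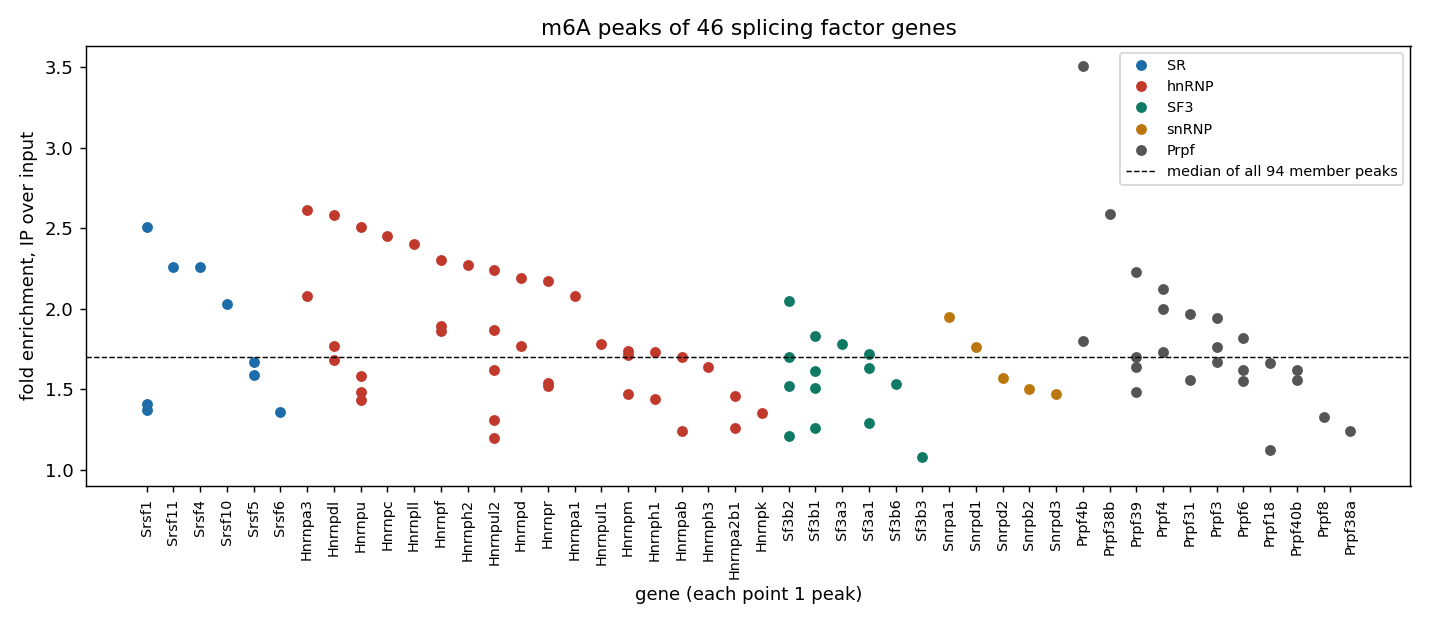
Fold enrichment of IP over input (y axis) for each of 90 m6A peaks in 46 splicing factor genes (x axis, coloured by family); the dashed line is the median of all 94 peaks, 1.70. Prpf4b stands highest at 3.51, and the SF3 and snRNP genes lie mostly below 2.

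Most of the members' peaks crossed exon junctions, a share that was not tested against other genes. By the authors' deposited table, 73 of the 94 peaks (77.7%) covered 2 or more exon blocks, against 40.1% of all peaks and 44.5% of peaks in the range of counts. Among 119 peaks of the list of other splicing genes the share was 63.0% in the authors' deposited table. The share ran from 55.6% of SR peaks to 85.7% of SF3 peaks in the authors' deposited table. The exonic length was similar, with a median of 173.5 bases in members and 151 bases in all peaks in the authors' deposited table. A peak of Srsf11 covered 6 exon blocks, the most among members in the authors' deposited table. At the other end, a peak of Hnrnph2 covered 743 bases in a single block in the authors' deposited table.

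Differences in m6A between the arms were few. Of the 94 peaks, 6 (6.38%) had a difference p under 0.05 in the authors' deposited table, all positive, and none had a false discovery rate (FDR) under 0.05. Beside this, 4.92% of all listed peaks had a p under 0.05, 3.6% positive and 1.32% negative in the authors' deposited table, and for genes in the range of counts 5.51% did, 4.19% positive and 1.32% negative, so the members' share lay near the background. Of all peaks, 3 (0.0229%) had such an FDR by the authors' deposited table. The smallest p was in Prpf39, a U1-associated factor (chromosome 12, 65055305 to 65056308), with a log2 difference of 0.30 at p = 0.0037 in the authors' deposited table. A peak of Hnrnpab (chromosome 11, 51605492 to 51606352) had 0.27 at p = 0.0044 in the authors' deposited table. Peaks of Hnrnpul2 (chromosome 19, 8825377 to 8826054), Hnrnph1 (chromosome 11, 50379508 to 50379608) and Hnrnpm (chromosome 17, 33665607 to 33666603) had 0.03, 0.17 and 0.13, with p = 0.015, 0.026 and 0.030 by the authors' deposited table. The enrichments of these 5 peaks lay between 1.24 and 1.71 in the authors' deposited table. None of these 5 genes was called in RNA, where they lay between -0.03 ± 0.08 for Prpf39 and 0.27 ± 0.10 for Hnrnpm in the authors' deposited table. The deposited p of the difference did not follow the size of the log2 difference. The Hnrnpul2 peak above passed the threshold with 0.03, while a peak of Srsf10 with 0.49 did not. Peaks of Hnrnpa3 at -0.07 and 0.37 carried the same deposited value. Passing the threshold therefore does not mean that the difference had a given size.

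By sign alone, 69 of the 94 peak differences (73.4%) were positive in the authors' deposited table, beside 60.6% of all peaks and 62.4% of peaks in the range. In the list of other splicing genes, 84 of 119 peak differences (70.6%) were positive. All 9 SR peaks were positive in the authors' deposited table, from 0.05 in Srsf4 to 0.49 in Srsf10, though none had a p under 0.05. The median difference of the members' peaks was 0.07 in the authors' deposited table, close to 0.05 for all peaks. The most negative were -0.34 in Sf3b1, -0.29 in Prpf4 and -0.25 in Sf3a1 and in Hnrnpu in the authors' deposited table. Each of these 4 genes also carried a positive peak.

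**Figure D4:**
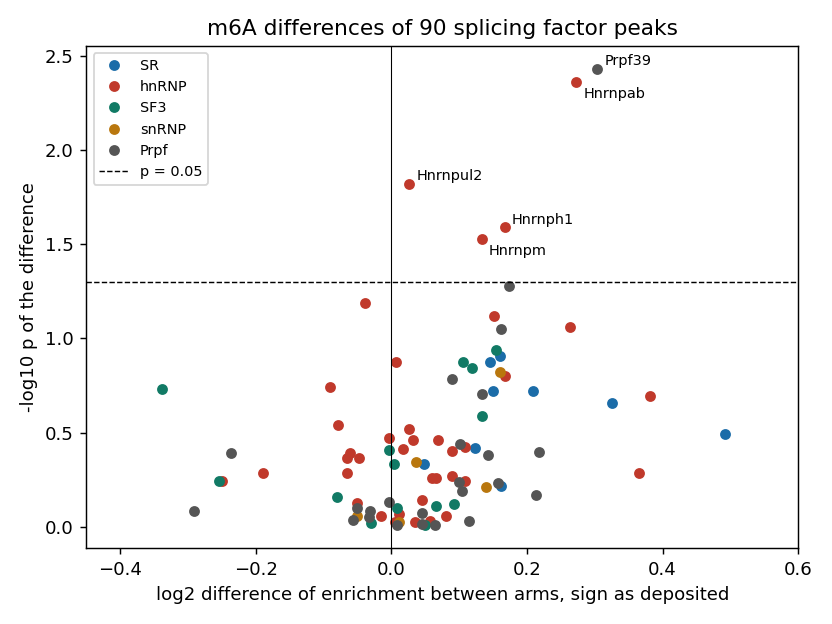
Log2 difference of m6A enrichment between the arms (x axis, sign as deposited) against -log10 of its p (y axis) for 90 splicing factor peaks; the dashed line marks a p of 0.05 in the authors' deposited table. The 5 labelled peaks above it all have positive differences, between 0.03 and 0.30.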

How the data were processed

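Libraries were made with a stranded mRNA kit carrying unique molecular identifiers, per the labels' protocols. HISAT2, StringTie, DESeq and the rat build rn6 are named, without versions or roles, per the submitters' processing notes. The samples are mouse, and all 94 member peaks lay inside the gene of the same name on GRCm38.p6. Peak starts are printed counted from 1.

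Per the file headers, the authors deposited for each gene a mean count divided by size factors (a normalized signal), its log2 fold change with SE, the Wald score, and p-values before and after adjustment. For each peak, the authors deposited a p-value against input, the log10 of that p and of its FDR, and the enrichment ratio. They also deposited a log2 difference with the log10 of its p and FDR. The log10 p of the difference was converted to p, and its FDR was compared with the threshold on the log10 scale. In these columns 1 value, not in a member's peak, is beyond any usual log10 p. The peak caller is not given in the sources used here.

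No test was run on libraries, as the tables hold none, and depth per library is unknown. Genes in the members' range of counts had means between their 5th and 95th percentiles, 975.7 and 36830. Wald intervals and re-centred adjusted p-values were computed from the deposited fold changes and SE. Members were counted against all genes, with exact binomial intervals that cover counting error only. The calculation was tested on simulated data. Python 3.11.15, pandas 2.3.3, numpy 2.4.6, scipy 1.17.1 and matplotlib 3.10.9 were used. Members and lists were chosen with earlier results of these data known. Named genes were called members, the 2 smallest p-values and highest mean count per family, genes with a called peak difference, the 5 with most peaks or highest enrichment, and called genes of the list of other splicing genes. Further members were named, after their values were seen, to complete a complex. A gene that these rules take is not reported here by name and is left out of the plots of single genes, while counts and medians include it. The planned search for GGACT in peaks was not run, as no genome was used here.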

Additional observations from a re-analysis of the deposited data

How the results depend on the processing

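The 8 called members were 7 of 68 when p-values were adjusted over every gene with a p, beside 9.13% of all genes. With means of at least 50 or 500 counts they were 8 of 66, beside 13.9% and 15.9% of all genes. Centred on the median of all tested genes they were 10 of 67, beside 12.8% of all genes. Centred on the median of the top 25% of mean counts, which lies at 0.03, 3 of the 8 remained (U2af2, Srsf7 and Sf3a1). There 2 negative calls were added (Srsf5 and Srsf11), 5 of 67 in all, beside 12.1% of all genes. An adjusted p under 0.01 left 1 of 67, U2af2, in the positive sign and in all, beside 5.73% of all genes. An adjusted p under 0.1 gave 11 positive and 3 negative calls, 14 of 67 in all, beside 17.7% of all genes. These shares of all genes count both signs. U2af2, Srsf7 and Sf3a1 passed under all 5 of these refitted settings. The median fold change stayed between 0.09 and 0.15 in all 11 alternatives, without any family, with other count filters and under both centrings, and the centrings of it and of the sign count were chosen after seeing the data. Peak differences numbered 3 of 94 at p under 0.01 and 3 at an enrichment of at least 1.5. They numbered 0 at an FDR under 0.05, beside 0.0229% of all peaks, and 0 at an enrichment of at least 2. Apart from that FDR, no share of all peaks was computed at these settings, so these counts have no background beside them. The share of members with a peak of at least 2-fold enrichment was 31.3%, beside 21.8% of all tested genes. These shares were not matched for mean count, whose median was 6416 in tested members and 853.5 in all tested genes. Of single peaks, 25.5% of the members' and 37.3% of all reached 2. The highest peak per gene had a median of 1.94, against 2.02 in genes of the range. What lies behind these shifts was not tested. The GGACT window was not run. No paired analysis was possible because the tables hold no value of a single library, and for the same reason no replicate could be left out.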

Other observations

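Of the 25 members with at least 2 peaks, 13 had at least 2 peaks with the same p against input in the authors' deposited table, so that p does not order the peaks of a gene. The SE of Srsf1, 0.55 at a mean of 6416 counts in the authors' deposited table, was the widest among tested members other than Snrpn. No value of a single library was at hand to show which libraries differ.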
